A study of Bos taurus with 19 samples.

Results

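Matricellular proteins are secreted into the extracellular matrix but do little to build it. They bind matrix, growth factors and cell surface receptors, and they tune adhesion, migration and the growth of vessels. The thrombospondins restrain angiogenesis, the tenascins loosen adhesion of cells to fibronectin, and SPARC and its relatives bind calcium and collagen. Many of them are known for their induction during tissue remodelling, which in the theca accompanies both the growth of a follicle and its regression.

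Measured here were transcripts of this class in the theca interna, the inner layer of the follicle wall that makes androgens and carries the capillaries. The list has 10 genes, NOV, SMOC2, MYOC, THBS1, THBS2, TNC, TNXB, POSTN, SPARC and SPP1. A probe set was taken when the array annotation gave it 1 of these symbols and no other, which found 16 probe sets for 9 of the genes, out of 13317 probe sets with 1 symbol for 9156 genes. No probe set carries the symbol NOV or its newer name CCN3. The list was drawn up with differences between large and small healthy follicles known, among them those of SMOC2 and MYOC, and so was chosen by values of that contrast. For it the members' values and differences are a description, given with standard errors and without a test.

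The follicles came from non-pregnant Bos taurus heifers at slaughter, with no genotype or treatment of the animals given. Small healthy follicles of 3 to 5 mm had either rounded (n = 5) or columnar (n = 5) granulosa cells next to the basal lamina, large healthy follicles were over 9 mm (n = 4), and small atretic follicles, which are regressing, were also of 3 to 5 mm (n = 5). Each of the 19 1-colour Affymetrix bovine arrays held RNA of the theca interna of 1 follicle, from which the granulosa layer had been removed by scraping, and nothing says that each follicle came from a separate animal. By the sample records the RNA kit differed among large, small healthy and small atretic follicles. They give 250 ng of RNA as labelled from atretic follicles against 2 to 5 µg from the others. The methods of the study, which describe arrays of healthy follicles only, name 1 extraction and another, single amount. Size, atresia and RNA preparation therefore cannot be told apart.

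The arrays carried the transcripts of theca cells in all groups. The theca hormone INSL3 had log2 signals of 12.0 ± 0.25 (SD, n = 10) in small healthy, 12.2 ± 0.28 (n = 4) in large and 11.6 ± 0.94 (n = 5) in atretic follicles. Other theca markers were lower in atretic than in small healthy follicles, CYP17A1 at 5.86 ± 2.18 against 7.33 ± 0.98 and CYP11A1 at 8.98 ± 0.97 against 10.29 ± 0.24. CYP17A1 exceeded 3 on 4 of 5 atretic arrays. STAR was not lower (8.46 against 8.31). Of the 6 theca markers tested in atretic follicles 1 passed, and it was lower. FSHR, the FSH receptor of granulosa cells, lay at or below 2.9 on every array. CYP19A1, the aromatase of granulosa cells, passed a log2 signal of 3 on 3 of 4 large arrays, with a highest value of 5.8, and on 1 of 10 small healthy ones, and was at most 2.0 on the atretic ones. Other genes of the granulosa list, INHA, INHBA, FST, AMH and HSD17B1, exceeded 3 on every array. On the large arrays INHBA reached 10.3 and FST 10.2. The study left out 1 large sample that it considered contaminated by granulosa cells, and the sample titles do not name it. Folds of the 4 large arrays here over small healthy ones were 2.53 at 1 probe set of SMOC2, 2.33 for TNC and 2.13 for TNXB. They lie close to those the study listed at the same probe sets after leaving that sample out. The mean log2 signal of 11 macrophage and leukocyte markers lay between 4.58 and 5.78 on the atretic, 4.22 and 5.00 on the large and 3.46 and 4.53 on the small healthy arrays. The poly-A transcripts spiked into the RNA as a labelling control averaged a log2 signal of 5.39 ± 0.25 (n = 4) on the large, 4.41 ± 0.27 (n = 5) on the atretic and 4.23 ± 0.20 (n = 10) on the small healthy arrays. Over the marker lists of each cell type, the mean log2 signal of atretic minus small healthy arrays was -0.62 for theca, -0.57 for granulosa, 0.22 for endothelial, 0.27 for smooth muscle and 0.14 for fibroblast markers. Markers of surface epithelium and of erythroid cells averaged below 3 in every group. The data are bulk RNA, in which fewer cells of a type and less RNA per cell cannot be told apart.

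Of the 16 probe sets, 15 were tested in each comparison, since their log2 signal exceeded 3 in 50% or more of the follicles of some type. The exception was that of SPP1. Probe sets differ in their affinity, so levels are compared between follicles and never between genes.

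In the theca of small atretic follicles SMOC2, TNXB and THBS2 were higher than in small healthy ones, and 2 of the 6 probe sets of THBS1 were lower. In limma 7 of the 15 member probe sets passed an adjusted p under 0.05, 4 of them higher and 3 lower, 1 of which, of THBS1, was above the detection limit in small healthy follicles only, beside 31.9% of all 15470 probe sets tested, of which 16.9% were higher and 15.1% lower. Over what was detected in both groups, a count added after the data were seen, 6 of 14 member probe sets passed, beside 30.5% of all. The median log2 difference was 0.60 over the members and 0.01 over all tested probe sets. The share of 46.7% is not tested against the rest, since probe sets of 1 gene are not independent. The small healthy arrays, part of the contrast that chose the members, are also the baseline here. The members' count, median and p-values are therefore not independent of that choice, and its effect on them was not tested. On the same atretic arrays all 10 tested macrophage and leukocyte markers were higher, with CD68, a lysosomal protein of macrophages, at 6.66 ± 1.17 (n = 5) against 3.96 ± 0.79 (n = 10), and their part in these differences was not tested. Against the rounded follicles alone, 0 member probe sets passed in limma, 5 had an unadjusted p under 0.05 and 244 of all probe sets passed, whereas against the columnar ones alone 8 passed, as did 4933 of all.

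**Figure D1:**
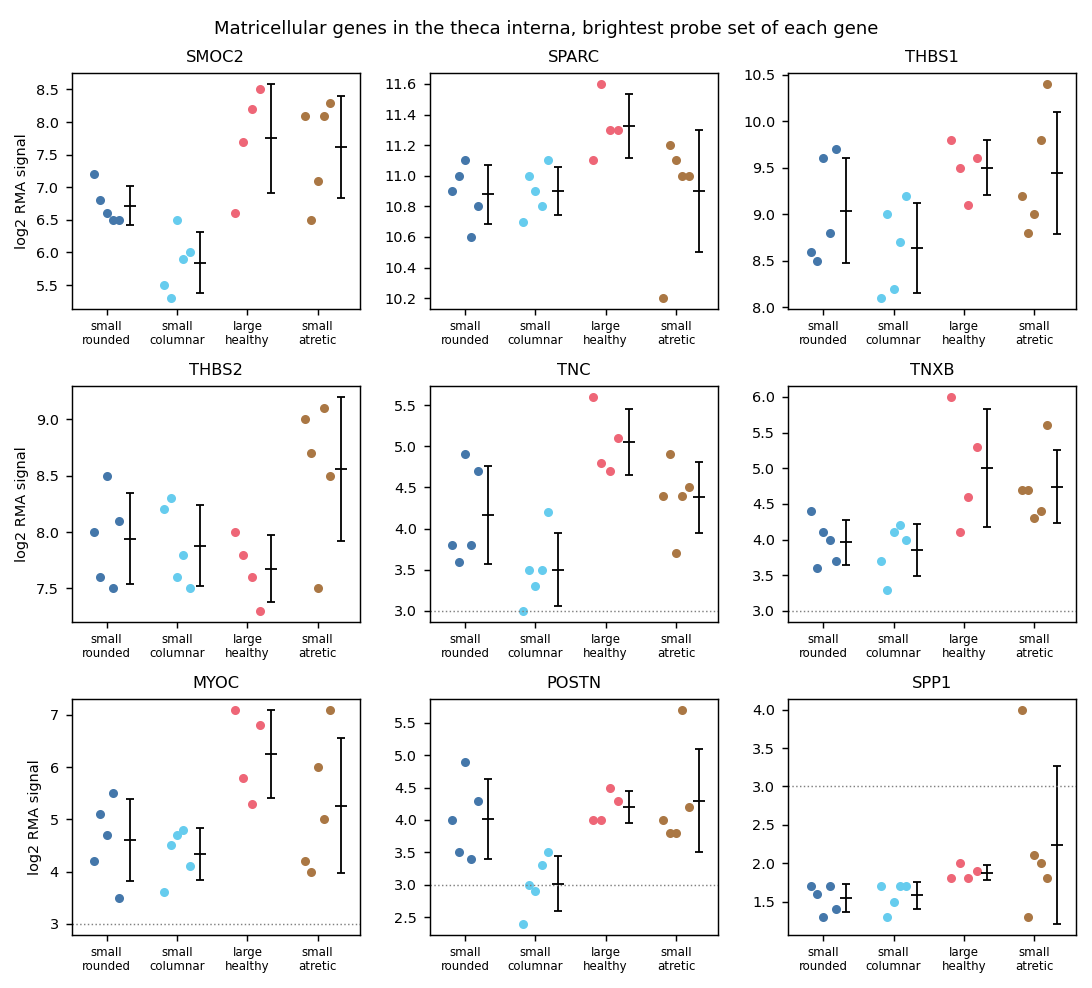
Log2 RMA signal (y axis) of the brightest probe set of 9 matricellular genes in each follicle, as dots by group (x axis: 5 small healthy rounded, 5 small healthy columnar, 4 large healthy, 5 small atretic), with the mean and SD as bars. A dotted line marks the log2 signal of 3 used for detection where a panel reaches low enough. SMOC2, TNXB, TNC, MYOC, POSTN and THBS1 have higher means in large and in atretic follicles than in either small healthy group (SMOC2 7.75 and 7.62 against 6.72 and 5.84), of which SMOC2 and TNXB passed in atretic follicles, and SPP1 passes 3 on a single array.

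SMOC2, a secreted calcium-binding protein related to SPARC, passed with a difference of 2-fold or more at both of its probe sets, and no other member did. Of all probe sets tested 2.08% passed with a rise of that size. At the brighter probe set the atretic follicles had log2 signals of 8.1, 6.5, 7.1, 8.1 and 8.3, and the small healthy ones ran from 5.3 through a median of 6.5 to 7.2. The 3 highest atretic follicles lay above every small healthy one. This is a log2 difference of 1.34, or 2.53-fold (SE 0.33 on the log2 scale, adjusted p = 0.00856 in limma). The dimmer probe set gave 1.23 (SE 0.31, adjusted p = 0.0104) with 4 of 5 atretic follicles above every small healthy one. In the same follicles the deviations of the 2 probe sets from their group means had a correlation of 0.77 over the 19 arrays. Against rounded follicles alone the differences were 0.90 and 0.94 and did not pass (adjusted p = 0.117 and 0.107).

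In large follicles SMOC2 was 6.6, 7.7, 8.2 and 8.5 at the brighter probe set, a log2 difference from small healthy follicles of 1.47 (SE 0.35), and 7.6, 7.2, 7.9 and 7.9 at the dimmer one, a difference of 1.34 (SE 0.27). The ranges of the large and the atretic follicles overlapped at both probe sets. The same 10 small healthy arrays stand in both differences.

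SPARC itself, a collagen-binding glycoprotein, had nearly the same level in atretic and small healthy follicles. The atretic arrays read 10.2, 11.2, 11.1, 11.0 and 11.0, and the small healthy ones ran from 10.6 through a median of 10.9 to 11.1. The log2 difference was 0.01 (95% interval -0.28 to 0.30, adjusted p = 0.959), which excludes a 2-fold change. Large follicles read 11.1, 11.6, 11.3 and 11.3, a difference of 0.44 (SE 0.11). Atretic replicate 1 was the lowest of the 19 arrays.

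The 2 thrombospondins, trimeric and homologous proteins that bind CD36 and CD47, were measured by 7 probe sets. THBS2 was higher in atretic follicles, at 9.0, 8.7, 7.5, 9.1 and 8.5, than in small healthy ones, at 7.5 to 8.5 with a median of 7.9. Of the 5 atretic follicles 3 lay above every small healthy one and 1 at the lowest small healthy value. The log2 difference was 0.65 (SE 0.23, limma's adjusted p = 0.0433), and it lost its call in 16 of 28 alternatives, such as 0.57 (adjusted p = 0.0680) with the arrays centred on their medians. In large follicles THBS2 was 8.0, 7.8, 7.6 and 7.3, within or below the range of the small healthy ones, with a difference of -0.23 (SE 0.19).

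The 6 probe sets of THBS1, called THBS1-a to THBS1-f here in falling order of mean signal, did not move together. In atretic follicles THBS1-b fell by 0.41 (SE 0.12, limma's adjusted p = 0.0189) and THBS1-e fell by 0.64 (SE 0.19, adjusted p = 0.0201). At THBS1-b the atretic follicles read 6.9, 6.6, 6.9, 6.7 and 6.7 and the small healthy ones 6.7 to 7.4. THBS1-f lay between 2.7 and 3.0 in atretic follicles, over 3 on 0 of 5 arrays, and was tested only because it exceeded 3 on 8 of 10 small healthy arrays, with a mean of 3.12 there and 2.84 in atretic follicles. Without atretic replicate 2 neither THBS1-b nor THBS1-e passed (-0.37 and -0.58, adjusted p = 0.0502 and 0.0529), and THBS1-e did not without atretic replicate 5 either (-0.61, adjusted p = 0.0548).

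The other 3 probe sets of THBS1 had higher means in atretic follicles but did not pass. THBS1-a, the brightest, read 9.2, 8.8, 9.0, 9.8 and 10.4 against 8.1 to 9.7, a log2 difference of 0.60 (95% interval -0.01 to 1.21, adjusted p = 0.115). THBS1-c had one of 0.61 (adjusted p = 0.132) and THBS1-d one of 0.19 (adjusted p = 0.281). Within groups the deviations of THBS1-a and THBS1-c correlated at 0.84 and those of THBS1-e and THBS1-b at 0.86, whereas across these pairs the correlations were between -0.12 and 0.07. Each is over 19 arrays of the same labelled RNA. The annotation gives all 6 the same gene, and which transcript each detects was not examined.

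**Figure D2:**
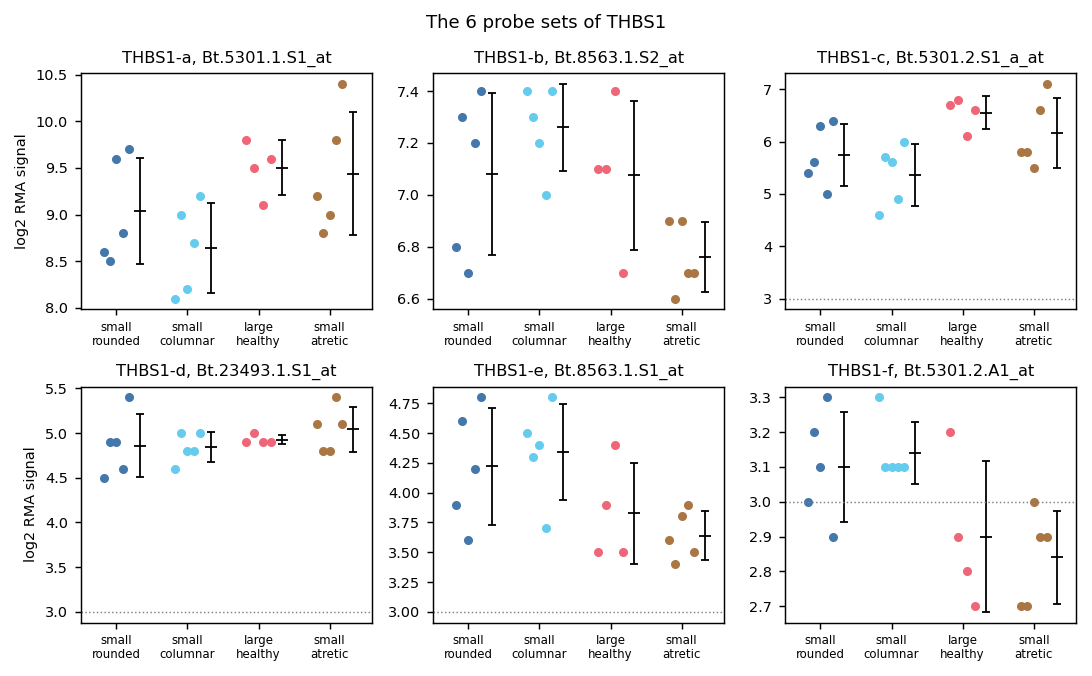
Log2 RMA signal (y axis) of the 6 probe sets annotated to THBS1 in each follicle, as dots by group (x axis), with the mean and SD as bars and a dotted line at the detection limit of 3 where a panel reaches low enough. THBS1-a and THBS1-c have their highest means in large (9.50 and 6.55) and atretic follicles (9.44 and 6.16), whereas THBS1-b and THBS1-e have their lowest in atretic ones (6.76 and 3.64).

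THBS1-c read 6.7, 6.8, 6.1 and 6.6 in large follicles, a log2 difference of 1.0 (SE 0.29), and THBS1-a one of 0.66 (SE 0.26). The differences were -0.46 (SE 0.23) at THBS1-e and -0.10 (SE 0.15) at THBS1-b.

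TNXB, tenascin-X, supports the organisation of collagen fibrils. It read 4.7, 4.7, 4.3, 4.4 and 5.6 in atretic follicles and ran from 3.3 through a median of 4.0 to 4.4 in small healthy ones. The 3 highest atretic follicles lay above every small healthy one, a log2 difference of 0.83, or 1.78-fold (SE 0.20 on the log2 scale, adjusted p = 0.00819 in limma). Against rounded follicles alone it was 0.78 and did not pass (adjusted p = 0.0868). Large follicles read 6.0, 4.1, 4.6 and 5.3, a difference of 1.09 (SE 0.27), with large replicate 2 inside the range of the small healthy ones.

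TNC, tenascin-C, is an anti-adhesive protein of remodelling matrix. Its brighter probe set read 5.6, 4.8, 4.7 and 5.1 in large follicles against 3.0 to 4.9 in small healthy ones, a log2 difference of 1.22 (SE 0.30). In atretic follicles it read 4.4, 4.9, 3.7, 4.4 and 4.5, inside the range of the small healthy ones, with a difference of 0.55 (95% interval -0.04 to 1.14, adjusted p = 0.133). The dimmer probe set lay between 2.7 and 3.2 on all arrays, near the detection limit, and did not follow the brighter one.

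MYOC, myocilin, a secreted protein with an olfactomedin domain, had the widest SD among atretic follicles of the 16 probe sets, 1.30 (n = 5). They read 4.2, 4.0, 6.0, 5.0 and 7.1, so that 2 of 5 lay above every small healthy follicle, whose values were 3.5 to 5.5. The log2 difference was 0.79 (95% interval -0.14 to 1.72, adjusted p = 0.170). In large follicles MYOC read 7.1, 5.8, 5.3 and 6.8, a difference of 1.78 (SE 0.37).

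POSTN, periostin, a binding partner of collagen and integrins, read 4.0, 3.8, 3.8, 5.7 and 4.2 in atretic follicles and 2.4 to 4.9 in small healthy ones. Its log2 difference was 0.78 (SE 0.37, adjusted p = 0.112). Against the columnar follicles alone, of which 2 of 5 exceeded the detection limit, the atretic mean of 4.30 stood against one of 3.02. In large follicles it read 4.0, 4.0, 4.5 and 4.3, a difference of 0.68 (SE 0.34).

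SPP1, osteopontin, a ligand of integrins and CD44, was not above the detection limit in healthy theca. It lay between 1.3 and 1.7 on the small healthy and between 1.8 and 2.0 on the large arrays. On the atretic arrays it read 4.0, 1.3, 2.1, 2.0 and 1.8, so that 1 of 19 follicles exceeded 3, and it was not tested.

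NOV, a member of the CCN family, can be given through no annotated probe set. The supplementary list of the study gives that name to a probe set that the annotation used here leaves unnamed and that is counted nowhere among the members. It read 4.4 to 6.0 in large, 3.2 to 4.4 in small healthy and 2.7 to 3.9 in atretic follicles, with means of 5.15 ± 0.66 (n = 4), 3.66 ± 0.39 (n = 10) and 3.20 ± 0.48 (n = 5). The difference of atretic from small healthy follicles was -0.46 (SE 0.21, limma's adjusted p = 0.103). Its values in large follicles did not overlap those in atretic ones. That comparison was not tested, and the share of all probe sets that separate so was not counted.

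In large against small healthy follicles 6 of the 15 member probe sets differed 2-fold or more, all higher, and 1.57% of all 15570 probe sets differed as much in either direction. They were those of MYOC and TNXB, both of SMOC2, the brighter one of TNC, and THBS1-c. The members were drawn from this contrast, so nothing is read from the count. The means of smooth muscle, endothelial, macrophage and leukocyte, fibroblast and granulosa markers were 0.57, 0.44, 0.49, 0.40 and 0.33 higher on the large arrays, and their part was not tested. Not every gene of these lists rose. Of the granulosa markers AMH (5.25 against 5.91) and HSD17B1 (7.45 against 7.85) were lower in large follicles, and 1 tested marker passed in each direction. Of the fibroblast markers LUM was lower (9.4 against 9.7), while MFAP5 rose from 4.5 to 6.5.

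**Figure D3:**
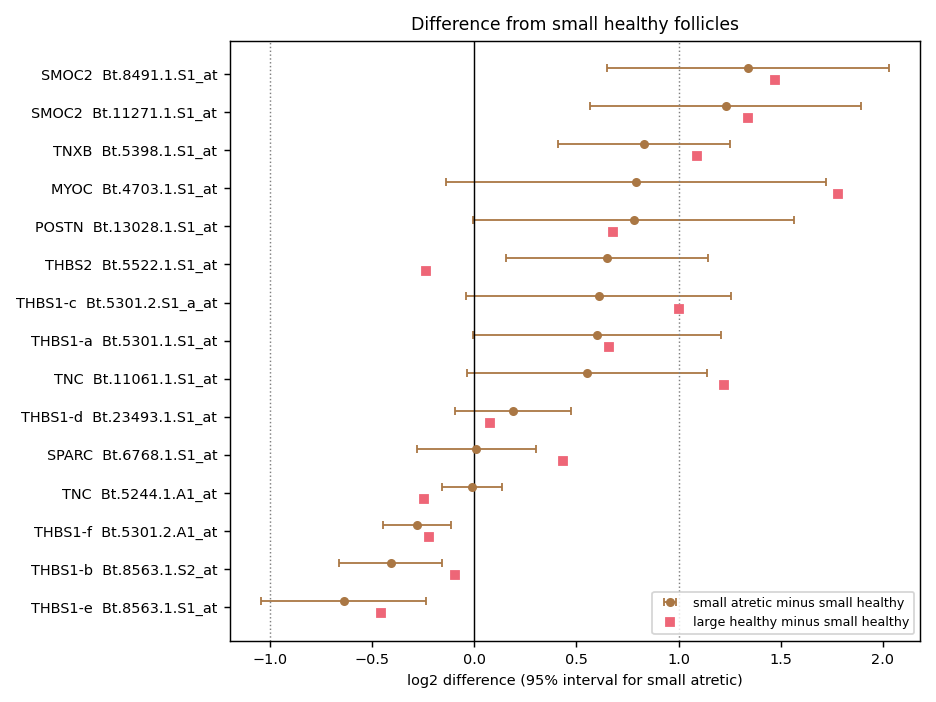
Log2 difference from the 10 small healthy follicles (x axis) of the 5 small atretic (circles, with 95% intervals from limma) and the 4 large healthy follicles (squares, with no interval, since the members were drawn from this contrast) at the 15 tested probe sets of the matricellular genes (y axis), and dotted lines mark 2-fold differences. The intervals of the atretic follicles lie above 0 at both probe sets of SMOC2 (1.34 at the brighter), TNXB (0.83) and THBS2 (0.65), and the large follicles are at 1.47, 1.09 and -0.23 there. Below 0 lie the atretic intervals at THBS1-b (-0.41), THBS1-e (-0.64) and THBS1-f (-0.28). Both sets of differences use the same small healthy arrays.

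Between rounded and columnar follicles 0 of the 15 member probe sets passed in limma, as did 0% of all 15570. At an unadjusted p under 0.05 there were 4 members, all higher in rounded follicles, beside 2.31% of all probe sets, with 1.71% of all higher in rounded. They were POSTN, both probe sets of SMOC2 and the brighter one of TNC. The mean of the macrophage and leukocyte markers was 0.31 higher in rounded follicles, and its part was not tested. POSTN read 4.0, 3.5, 4.9, 3.4 and 4.3 in rounded and 2.4, 3.0, 2.9, 3.3 and 3.5 in columnar follicles, a log2 difference of 1.0 (95% interval 0.43 to 1.57, adjusted p = 0.996). The intervals of 9 of the 15 excluded a 2-fold change, as did those of 95.6% of all probe sets tested. The intervals of POSTN, MYOC, THBS1-c, both of SMOC2 and the brighter one of TNC did not, so these members are less settled than most probe sets.

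Variation among follicles of the same group was compared for the 8 detected genes, as deviations from the group means at the brightest probe set. Over the 19 arrays 0 of 28 pairs passed a permutation test within groups (100000 permutations, two-sided, adjusted over the 28 pairs), and 2 had an unadjusted p under 0.05. The highest Pearson's r was that of THBS1 and TNC, 0.65 (permutation p = 0.0106, adjusted p = 0.298), with Spearman's rho of 0.69 (permutation p = 0.00467, adjusted p = 0.127) and r = 0.67 without the 2 arrays farthest from the median of THBS1. The next was THBS1 and POSTN, 0.58 (permutation p = 0.0376, adjusted p = 0.477), with rho = 0.66 (permutation p = 0.00906, adjusted p = 0.127).

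In the 14 healthy follicles THBS1 and TNC varied closely together. This set was 1 of the alternatives to all 19 arrays, over which no pair passed, and the adjusted p-values given here do not cover the alternatives. Rounded replicates 1 to 5 read 8.6, 8.5, 9.6, 8.8 and 9.7 for THBS1 and 3.8, 3.6, 4.9, 3.8 and 4.7 for TNC. In columnar follicles these values were 8.1, 9.0, 8.2, 8.7 and 9.2 for THBS1 and 3.0, 3.5, 3.3, 3.5 and 4.2 for TNC. Large replicates 1 to 4 read 9.8, 9.5, 9.1 and 9.6 for THBS1 and 5.6, 4.8, 4.7 and 5.1 for TNC. In each healthy group the follicle highest in TNC was the highest or next to highest in THBS1. Over the 14 healthy arrays r was 0.92 (permutation p = 4e-05, adjusted p = 0.00112 over 28 pairs) and rho was 0.90 (permutation p = 8e-05, adjusted p = 0.00224), and it was the only pair of the 28 to pass. Without the 2 arrays farthest from the median of THBS1 r was 0.90, and with any 1 healthy array left out it lay between 0.91 and 0.95.

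The relation differed with the probe set of THBS1, in a comparison chosen after the values were seen. In the healthy follicles TNC had an r of 0.76 with THBS1-c (permutation p = 0.00816, adjusted p = 0.0245 over 6 probe sets) and of 0.58 with THBS1-d (adjusted p = 0.176). With THBS1-b it was -0.18 and with THBS1-e -0.17 (adjusted p = 0.699 for both). In atretic follicles THBS1 was highest in replicate 5, at 10.4, where TNC was 4.5, and lowest in replicate 2, at 8.8, where TNC had its highest value of 4.9. Whether the relation differs between healthy and atretic follicles was not tested.

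**Figure D4:**
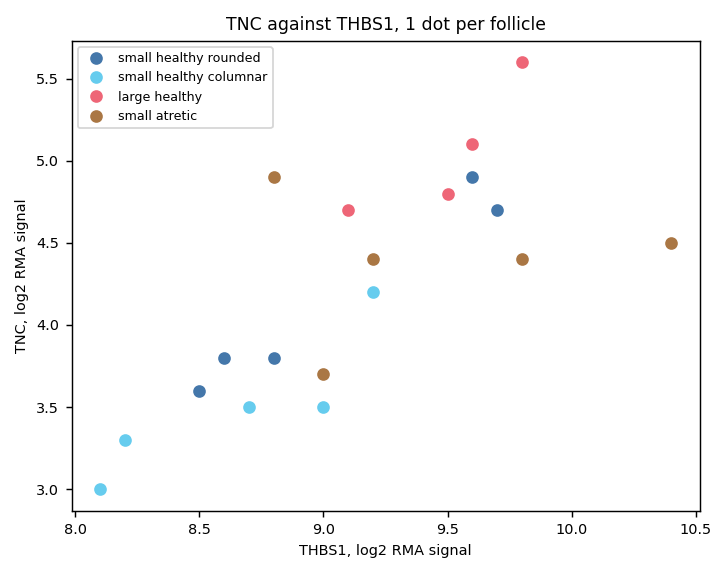
Log2 RMA signal of TNC (y axis) against that of THBS1 (x axis, THBS1-a), with 1 dot per follicle and the 4 groups in colour. In the healthy groups follicles with more THBS1 have more TNC (within-group r = 0.92, n = 14), and the 5 atretic follicles, with TNC between 3.7 and 4.9, do not line up in this way.

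**Figure D5:**
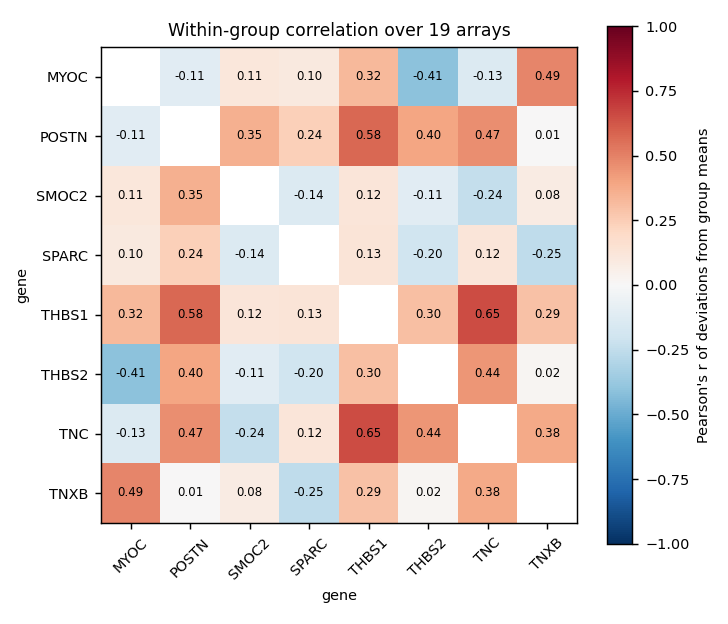
Pearson's r of the deviations from the group means over 19 arrays for the 28 pairs of 8 matricellular genes (both axes), in colour from -1 to 1 and in figures. THBS1 and TNC have the highest value, 0.65, and MYOC and THBS2 the lowest, -0.41, and none of the 28 passes after adjustment.

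Among all 7414 other named and detected genes, those most like each member in these deviations over the 19 arrays were found. They were ITGA10 (r = 0.92) and SOCS2 (0.88) for MYOC, CLDN5 (0.91) and ADAMTS1 (0.90) for TNXB, and VAC14 (0.89) and GRN (0.80) for SMOC2. For THBS1 they were STK10 (0.88) and RCSD1 (0.87), for THBS2 NDN (0.82) and LOC100125415 (0.81), and for SPARC HNRNPL (0.77) and LASP1 (0.76). IER5L (0.75) and LOC282255 (0.75) were closest to TNC, and CMTM3 (0.71) and PAX8 (0.70) to POSTN. Each is the highest of many values and is given as a description.

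Other genes of the same kind were followed in a list of 37 relatives, of which 22 were detected among small follicles. In atretic follicles 6 of the 22 were higher, 1 was lower and 15 did not pass, with a median log2 difference of 0.11 over the list. The share of 31.8% is near the 31.9% of all probe sets tested. LGALS3, galectin-3, a carbohydrate-binding protein abundant in macrophages, was higher at 7.32 ± 0.93 (n = 5) against 5.04 ± 0.48 (n = 10). Its log2 difference was 2.28 (SE 0.32, limma's adjusted p = 0.00135). Every atretic follicle lay above every small healthy one, and the share of all probe sets that separate so is not given here. TGFBI, an integrin ligand induced by TGFβ, was higher by 1.12 (SE 0.19, adjusted p = 0.00187 in limma). SPOCK2, a proteoglycan of the SPARC family, counted among the 6, had means of 3.64 ± 1.06 (n = 5) and 2.00 ± 0.48 (n = 10) and was tested only because atretic follicles exceeded the detection limit. FBLN1, a fibulin, had 0.81 (adjusted p = 0.00875), MGP, an inhibitor of calcification, 0.49 (adjusted p = 0.0144), and SPARCL1, the closest relative of SPARC, 0.47 (adjusted p = 0.0285). LGALS1, galectin-1, fell by 0.64 (SE 0.17, adjusted p = 0.0125).

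From a list made with earlier results known, 3 of 23 detected relatives passed in large follicles, all higher, beside 3.58% of all probe sets. Of these, CCN5, of the family of NOV, and SPOCK2 were tested only because large follicles exceeded the detection limit, with means of 3.40 ± 0.22 (n = 4) against 2.69 ± 0.16 (n = 10) and of 3.23 against 2.00. Among the 21 relatives detected in both groups 1 passed. It was FBLN5, which assembles elastic fibres, with a log2 difference of 0.62 (SE 0.11, limma's adjusted p = 0.0104). The fourth by p was TGFBI, with 0.62 (adjusted p = 0.0678). CCN1 and CCN2, immediate early members of the CCN family that are named here after their values were seen, had 0.54 and 0.34 in atretic and 0.69 and 0.26 in large follicles and did not pass in either. Against rounded follicles alone 1 probe set of the relatives passed in atretic follicles rather than 8, and 0 rather than 3 in large ones.

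Of the receptors and binding partners, 30 genes were listed and 16 were detected. In atretic follicles 3 were higher, 2 were lower and 11 did not pass, a share of 31.2% beside 31.9% of all probe sets tested. CD36, the scavenger receptor through which thrombospondin acts on endothelium, was higher by 1.81 (SE 0.39, limma's adjusted p = 0.00529), CD44, a receptor for hyaluronan and osteopontin, by 0.79 (SE 0.21, adjusted p = 0.0121), and ITGAV, the integrin αv subunit, by 0.59 (SE 0.18, adjusted p = 0.0212). CALR, calreticulin, fell by 0.95 (SE 0.18, adjusted p = 0.00264) and ITGB1, the integrin β1 subunit, fell by 0.22 (SE 0.07, adjusted p = 0.0290). CD36, CD44 and LGALS3 are also made by macrophages, whose markers were higher on the same arrays, and their part in these differences was not tested. CD47, the other thrombospondin receptor, named after its values were seen, had 0.17 (adjusted p = 0.281).

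In large follicles 2 of the 16 receptors passed, both higher, beside 3.58% of all probe sets. The list was made with earlier results of these data known. Both genes that passed, CD44 and CAV1, are on the study's own list of genes higher in large follicles. Nothing is read from the count, and the values are a description. At the brightest probe set CD44 had a log2 difference of 1.05 (SE 0.24, limma's adjusted p = 0.0311) and CAV1, caveolin-1, 0.70 (SE 0.17, adjusted p = 0.0363). The study lists a change of over 2-fold for CAV1, which its brightest probe set did not reach here. Over all receptor probe sets 4 passed and 2 were called, against 2 genes passed and 1 called at the brightest ones. STAB1, a scavenger receptor that takes up SPARC, had 0.48 (SE 0.15, adjusted p = 0.0879), and CD36 1.10 (SE 0.40, adjusted p = 0.123). Against rounded follicles alone 1 receptor probe set passed in atretic follicles rather than 7, and 0 rather than 4 in large ones. Between rounded and columnar follicles 0 relatives and 0 receptors passed in limma, and at an unadjusted p under 0.05 there were 0 relatives and 1 receptor, ITGAV, with a log2 difference of 0.58.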

How the data were processed

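The authors summarised 19 Affymetrix GeneChip Bovine Genome Arrays, 1 per follicle, by RMA with quantile normalization and deposited log2 signals per probe set with 1 decimal. The submitters' processing notes name Partek 6.5. Which arrays entered each normalization run was not stated. Quantile normalization makes the array distributions alike (medians of 3.8 to 3.9), so a change of most transcripts would not show. Precision is set by the number of arrays, which have no sequencing depth, with median half-widths of the 95% intervals of 0.27, 0.24 and 0.29 log2 units for large, atretic and rounded against columnar comparisons.

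The sample records name a different RNA kit for each of the large, small healthy and small atretic follicles. The methods of the study name Trizol and 1 lower amount of labelled RNA. They took only healthy follicles to the arrays and describe no atretic array. Groups and replicate numbers came from the sample titles, and every column was used. Of 24127 probe sets 13317 have 1 gene symbol, 86 have several and 10724 have none in the annotation given with the arrays. The 111 control probe sets were left out. Tested were the probe sets exceeding a log2 signal of 3 in 50% or more of the follicles of any type. limma 3.58.1 (R 4.3.3) was fitted to large and small healthy arrays, to small atretic and small healthy arrays, and to rounded, columnar and large arrays for rounded against columnar, and p-values were adjusted over the whole table by Benjamini-Hochberg. A probe set passed at an adjusted p under 0.05 and was called when it also changed at least 2-fold. A gene of the lists stands by its brightest tested probe set. Follicles may share animals, so the spread that p-values rest on is that between follicles.

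Correlations used deviations from group means and 100000 permutations within groups. The members and lists were chosen with earlier results of these data known. Named are all member probe sets, the relatives and receptors that were called, or where fewer than 4 of a list were, the 4 with the smallest p, and the 2 genes most like each member; other genes that passed are named as well. Marker lists for theca, granulosa, endothelial, smooth muscle, fibroblast, immune, epithelial and erythroid cells came from general knowledge. The limma calls and the permutation test of the correlations were tested on simulated data. Alternatives were other filters, scalings, fits, groups and arrays left out, and TNC was set against each probe set of THBS1 after the data were seen, as was the count over probe sets detected in both groups. Python 3.11.15 with numpy 2.4.6 was used for correlations.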

Additional observations from a re-analysis of the deposited data

Results flagged for a closer look

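In 6 of 64 group and probe set combinations 1 follicle lay far from the others of its group, where chance gives about 1 in 20. POSTN was 5.7 in atretic replicate 4 against 3.8 to 4.2 in the other atretic follicles. SPARC was 10.2 in atretic replicate 1 against 11.0 to 11.2. The other cases are small steps beside identical values, which rounding to 1 decimal produces. THBS1 was 5.0 at THBS1-d in large replicate 2 against 4.9, and 3.3 at THBS1-f in columnar replicate 1 against 3.1. The dimmer probe set of TNC was 2.8 in columnar replicate 5 and 2.9 in atretic replicate 3, each against 3.1 in the others.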

How the results depend on the processing

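The 557 probe sets that passed between large and small healthy follicles, and the 110 called, became 339 and 54 with an unmoderated linear model, the test named by the methods, 159 and 59 without large replicate 2 and columnar replicate 1, and 18 and 12 against rounded follicles alone. The 557 became 258 against columnar follicles alone, 1078 with array weights and 341 with the replicate block. With 1 array left out the ranges were 154 (without large replicate 4) to 982 (without rounded replicate 1) and 54 to 162, and the 557 also fell by over 1.5 times without large replicate 2 or 3, rounded replicate 4, or columnar replicate 1 or 2. For atretic follicles 4939 passed and 569 were called. These became 244 and 151 against rounded follicles alone, and the 7 members that passed and 2 called became 0 and 0. With 1 array left out the ranges were 2978 (without atretic replicate 5) to 5690 and 444 to 706 for all, and 4 (without atretic replicate 2) to 9 and 1 to 2 for members. The 1 was without atretic replicate 5. POSTN, over the detection limit in 2 of 5 columnar follicles, passed with array weights, in 1 fit of all groups, against columnar follicles and without rounded replicate 3. TNC passed in these settings except the fit of all groups, and THBS1-a with array weights. With healthy follicles only, 1 pair of genes passed the correlation test rather than 0. All other alternatives, with 6 members and 4348 of all passing over what was detected in both groups, left these counts within 1.5 times, and no member that passed turned its direction. With the replicate block 6 members passed in atretic follicles, with THBS2 no longer passing (adjusted p = 0.0611). Same-numbered arrays of different groups had deviations that correlated between -0.34 and 0.57, over 0.1 in 10 of 27 pairs. In 11 of the 27 the same-numbered array was the best match in the other group. Whether the numbers pair follicles of 1 animal or 1 batch cannot be told from these values. Probe sets near a log2 signal of 3 (THBS1-f and the dimmer one of TNC) have no level well above the detection limit.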
